A study of Mus musculus with 12 samples.

Results

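The genes described here encode the C1 complex, which starts the classical pathway of complement, and its plasma inhibitor. They are the 3 chains of C1q (C1qa, C1qb and C1qc), the proteases C1r (C1ra, C1rb) and C1s (C1s1, C1s2), and the C1 inhibitor Serping1. They were taken by gene symbol, as 8 of the 55401 rows of a gene expression table of 12 mouse oral tumors. All 8 were found once each. Each was at 1 FPKM (fragments per kilobase of transcript and per 1000000 mapped fragments) or more in at least 3 libraries, the condition that 15813 genes met for testing.

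C1q is the recognition part of C1. It binds antibody in immune complexes, some microbial surfaces and dying cells, and in most tissues it is made by macrophages, so its transcripts are widely used as markers of tumor-associated macrophages. C1r and C1s are serine proteases made by fibroblasts, epithelial cells and hepatocytes. When C1q binds, C1r cleaves C1s, and C1s then cleaves C4 and C2, which leads to the C3 convertase. Serping1, a serpin, inactivates both proteases and also kallikrein and factor XII. The mouse carries a second copy of each protease gene, C1rb and C1s2.

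The tumors were grown by orthotopic injection of MTC-Q1 mouse oral cancer cells (Q1-2 in the sample titles, by the methods a luciferase-expressing subline) into C57BL/6 mice, which by the methods were bought at 6 to 8 weeks of age. By the labels every animal carried the same tumor line and was treated once the tumor reached 100 mm3, with 4 doses by the series description and 6 doses by the sample records. The 4 groups of 3 libraries received a control isotype (IgG1-Fc, here Ctrl-IgG), an antibody that blocks the CSF1 receptor (aCSF1R), human IL-10 fused to an Fc (IL-10-Fc), or BF10, in which human IL-10 is joined to the heavy chain of the same anti-CSF1R antibody. CSF1R is the receptor on which most macrophages depend for survival. Whole tumor RNA was sequenced, so fewer macrophages and less C1q RNA per macrophage cannot be told apart.

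The libraries fell into 2 sides, each made of 2 whole treatment groups. The Ctrl-IgG and aCSF1R libraries held at most 0.04 FPKM of Xist, at most 0.27 FPKM of the class II gene H2-Ea, at most 0.28 FPKM of Krt8 and at least 4.23 FPKM of the Y-linked Eif2s3y. The IL-10-Fc and BF10 libraries held 17.1 to 30.7 FPKM of Xist, at least 552.78 FPKM of H2-Ea, at least 168.88 FPKM of Krt8 and at most 3.29 FPKM of Eif2s3y. C57BL/6 mice are known not to express H2-Ea, so the second set goes against the strain that the records of all 12 libraries give. Treatment and side cannot be told apart in any comparison that crosses these sets. aCSF1R against Ctrl-IgG and BF10 against IL-10-Fc each lie within one side. In addition, 4 libraries (replicate 1 of BF10, replicate 2 of Ctrl-IgG and replicates 1 and 2 of IL-10-Fc) had the highest FPKM sums, 819001 to 976950 against 637596 to 701275 in the others, and 6.57 to 9.04% of FPKM in mitochondrial genes against 2.99 to 3.61%. They are called the high-sum libraries below. Nothing in the labels says that the libraries of a group came from separate animals, so p-values measure the spread between these samples.

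The members occupy 3 places in the mouse genome (GRCm38). The C1q genes lie together on the minus strand of chromosome 4 within 18675 bases: C1qb (ENSMUSG00000036905) at chr4:136880129-136886187, C1qc (ENSMUSG00000036896) at chr4:136889804-136893065 and C1qa (ENSMUSG00000036887) at chr4:136895917-136898803. The gaps between them are 3616 and 2851 bases, and the longest coding transcript of each has 3 exons. The 4 protease genes lie on chromosome 6 within 123681 bases: C1ra (ENSMUSG00000055172) at chr6:124512405-124523443 on the plus strand, C1s1 (ENSMUSG00000038521) at chr6:124530345-124542359 on the minus strand, C1rb (ENSMUSG00000098470) at chr6:124570294-124581171 on the plus strand, and C1s2 (ENSMUSG00000079343) at chr6:124624625-124636085 on the minus strand. Serping1 (ENSMUSG00000023224) is alone at chr2:84765387-84775444 on the minus strand, with 8 exons.

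The second copies of the proteases are close to the first. Aligned coding bases were 98.0% identical between C1ra and C1rb, with 42 of 2121 differing, and 95.7% identical between C1s1 and C1s2, with 90 of 2085 differing. For comparison, C1ra and C1s1 were 57.4% identical and the C1q chains 55.9 to 60.8% identical to each other. Of all 75-base windows, the read length, in the annotated transcripts, 42.4% of those of C1ra and 49.9% of those of C1rb also occurred in another gene. The shares were 13.0% for C1s1 and 16.3% for C1s2, and 0 for Serping1 and each C1q chain. Levels of C1ra and C1rb, and of C1s1 and C1s2, therefore rest on reads that the counting had to divide. The stretches below are the read-length part of a coding exon in which each pair differs most, printed from the GRCm38 transcripts with the differing bases in capitals, since only such stretches tell the copies apart. They lie at chr6:124522639-124522713 (plus strand), chr6:124580685-124580759 (plus), chr6:124531486-124531560 (minus) and chr6:124625708-124625782 (minus), in that order.
C1ra: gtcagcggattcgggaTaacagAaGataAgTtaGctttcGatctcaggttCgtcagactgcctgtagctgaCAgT
C1rb: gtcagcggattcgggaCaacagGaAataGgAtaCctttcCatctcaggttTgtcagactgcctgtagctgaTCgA
C1s1: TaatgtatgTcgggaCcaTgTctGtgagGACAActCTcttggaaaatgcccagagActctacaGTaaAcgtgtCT
C1s2: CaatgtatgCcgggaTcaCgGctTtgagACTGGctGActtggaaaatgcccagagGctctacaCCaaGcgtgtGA
The C1r stretches differ at 11 of 75 bases and the C1s stretches at 19 of 75.

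Promoter windows of RefSeq (GRCm38.p6, 250 bases before to 50 after a gene start) were matched for 6 of the 8 members, namely C1qb, C1qc, C1ra, C1rb, C1s1 and C1s2. They were searched on both strands for GAGGAA (the core bound by the myeloid factor PU.1), TTCNNNGAA (the gamma interferon activation site) and the interferon-stimulated response element (the last by its consensus). A GAGGAA can lie inside a TTCNNNGAA. GAGGAA was found in the windows of C1qb, C1qc and C1ra and was not found in those of C1rb, C1s1 and C1s2. It occurs in 28.3% of all 32851 windows, so its presence is common. TTCNNNGAA was found in the windows of C1ra and C1rb only, against 8.30% of all windows, and the interferon-stimulated response element, in 3.44% of all windows, was in no member's window. The parts of both C1q windows upstream of the annotated gene are shown because both hold the core bound by PU.1, with GAGGAA or its complement in capitals, at chr4:136886188-136886450 and chr4:136893066-136893164, both on the minus strand.
C1qb: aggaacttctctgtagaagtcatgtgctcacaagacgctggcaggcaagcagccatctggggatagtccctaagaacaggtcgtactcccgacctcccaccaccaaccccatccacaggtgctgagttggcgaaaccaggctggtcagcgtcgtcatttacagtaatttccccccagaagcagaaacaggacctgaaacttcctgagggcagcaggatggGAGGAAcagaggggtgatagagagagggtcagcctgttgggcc
C1qc: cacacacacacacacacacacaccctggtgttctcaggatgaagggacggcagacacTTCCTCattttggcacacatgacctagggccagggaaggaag

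The 3 C1q chains were lowest under aCSF1R. Outside that group each chain exceeded each protease gene of its library in FPKM, and in all 3 aCSF1R libraries C1ra exceeded every chain. C1qa, the A chain, was at 120, 144 and 231 FPKM under Ctrl-IgG, 65.0, 65.2 and 55.4 under aCSF1R, 399, 334 and 274 under IL-10-Fc, and 330, 349 and 371 in BF10 (replicates 1, 2 and 3). All 3 aCSF1R libraries lay below all Ctrl-IgG libraries, and these lay below all libraries of the other groups. C1qb, the B chain, was at 116, 166 and 226 FPKM under Ctrl-IgG, 67.4, 71.9 and 61.5 under aCSF1R, 169, 147 and 177 under IL-10-Fc, and 180, 233 and 274 under BF10. For C1qb the aCSF1R libraries were again the lowest, while Ctrl-IgG overlapped with both IL-10-Fc and BF10. The C chain, C1qc, was at 91.7, 149 and 184 FPKM under Ctrl-IgG, 54.5, 55.7 and 45.3 under aCSF1R, 571, 519 and 201 under IL-10-Fc, and 417, 261 and 289 under BF10. The C1qc groups were separated in the same way as those of C1qa, with IL-10-Fc and BF10 overlapping. From low to high, the order of the group means was aCSF1R, Ctrl-IgG, BF10, IL-10-Fc for C1qc, aCSF1R, Ctrl-IgG, IL-10-Fc, BF10 for C1qa, and aCSF1R, IL-10-Fc, Ctrl-IgG, BF10 for C1qb, in which IL-10-Fc and Ctrl-IgG overlapped as neighbors. By rank among all genes of a library, C1qa stood between 251 and 370 in the libraries of IL-10-Fc and BF10 and between 1805 and 2201 in the aCSF1R libraries.

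The main protease genes had the opposite order on the Ctrl-IgG and aCSF1R side. C1ra, the main C1r gene, was at 48.7, 16.3 and 42.3 FPKM under Ctrl-IgG, 72.9, 72.9 and 75.7 under aCSF1R, 15.3, 9.51 and 44.4 under IL-10-Fc, and 25.1, 39.1 and 49.4 under BF10. The aCSF1R libraries were above every other library, and the other 3 groups overlapped. C1s1, the main C1s gene, was at 32.0, 15.8 and 35.0 FPKM under Ctrl-IgG, 61.2, 74.8 and 58.5 under aCSF1R, 47.9, 47.4 and 67.5 under IL-10-Fc, and 44.9, 42.1 and 49.0 under BF10. Ctrl-IgG was below each of the other groups without overlap, and aCSF1R overlapped with IL-10-Fc but not with BF10. C1ra was also lowest in the high-sum libraries of each group that has one, at 9.51 to 25.1 FPKM in those 4 and 39.1 to 49.4 FPKM in the other 5 libraries of the same 3 groups. The part of these libraries' state in the C1ra levels was not tested.

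C1rb and C1s2 were nearly silent on one side and present on the other. C1rb was at 0, 0 and 0.12 FPKM under Ctrl-IgG, 0.08, 0.08 and 0.06 under aCSF1R, 2.67, 1.78 and 5.57 under IL-10-Fc, and 3.14, 4.66 and 4.14 under BF10. C1s2 was at 0.04, 0.04 and 0.19 FPKM under Ctrl-IgG, 0.05, 0.22 and 0.11 under aCSF1R, 4.41, 4.42 and 6.08 under IL-10-Fc, and 4.43, 3.24 and 3.57 under BF10. Both genes split the 12 libraries exactly as Xist and H2-Ea did, and both passed the filter on low values through the 6 libraries of IL-10-Fc and BF10 alone. C1rb made up at most 0.283% of C1ra plus C1rb on the first side and 7.73 to 15.8% on the second. C1s2 made up at most 0.540% of C1s1 plus C1s2 on the first side and 6.79 to 8.98% on the second. The side of the libraries and the treatment cannot be told apart for either gene, and the division of shared reads adds to the uncertainty of their levels.

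Serping1, the inhibitor, had the widest relative spread in the controls among the 6 members at 1 FPKM or more in every library. It was at 8.60, 9.19 and 56.8 FPKM under Ctrl-IgG, 38.08, 59.9 and 35.6 under aCSF1R, 47.0, 32.6 and 102 under IL-10-Fc, and 68.6, 85.4 and 110 under BF10. Ctrl-IgG replicate 3 stood at more than 6 times the other 2 controls and overlapped with aCSF1R and IL-10-Fc, while all BF10 libraries were above all Ctrl-IgG and aCSF1R libraries. The coefficient of variation within Ctrl-IgG was 111% for Serping1, against 32.6 to 47.9% for the other 5.

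**Figure D1:**
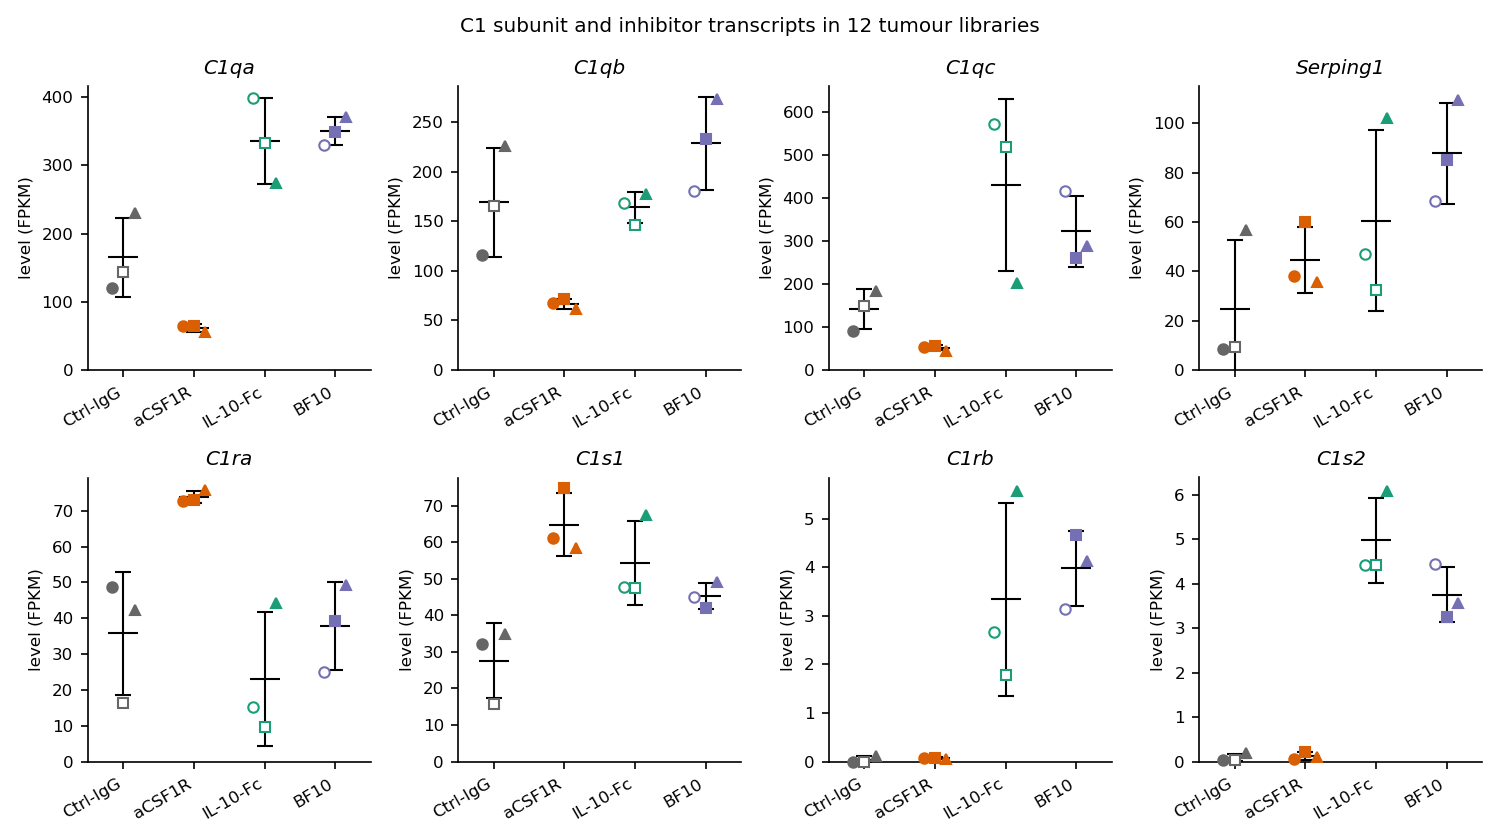
Level in FPKM (vertical axes from 0) of each C1 member in the 4 treatment groups (horizontal axis). Symbols are libraries (circle, square and triangle for replicates 1, 2 and 3), open symbols are the 4 high-sum libraries, and black marks are the mean ± SD of 3, cut at 0 for Serping1 in Ctrl-IgG. The C1q chains are lowest in aCSF1R, C1ra is highest there, and C1rb and C1s2 are at most 0.22 FPKM under Ctrl-IgG and aCSF1R.

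Does blocking CSF1R alone change C1? The aCSF1R and Ctrl-IgG tumors lie on the same side. No member passed the threshold (limma on log2(FPKM + 1), Benjamini-Hochberg adjusted p under 0.05 and at least 1.5-fold), and none of the 15813 genes did (0% called). The levels nevertheless separated in 5 of the 6 members that were at 1 FPKM or more in every library, with the C1q chains below and C1ra and C1s1 above the control libraries, where 14.9% of all genes had groups without overlap. C1qa averaged 61.8 ± 5.604 FPKM against 165 ± 57.9 (SD, n = 3 each), a log2 difference of -1.35 (SE 0.25, limma unadjusted p 0.000216, adjusted p 0.552). C1qb differed by -1.28 (SE 0.25, adjusted p 0.761) and C1qc by -1.38 (SE 0.40, adjusted p 0.958) on the same scale. The control means were 2.53 to 2.73 times the aCSF1R means, and C1qa and C1qb ranked 6 and 8 of 15813 by limma p. On the protease side C1s1 differed by 1.27 (SE 0.29, unadjusted p 0.00103, adjusted p 0.795) and ranked 20. C1ra differed by 1.16 (SE 0.53, 95% interval -0.00063 to 2.33) and Serping1 by 1.31 (SE 0.64, interval -0.09 to 2.72), both intervals reaching from just below 0 to more than 2. Without Ctrl-IgG replicate 3 the Serping1 difference was 2.16 and was not called (limma adjusted p 0.440). At an unadjusted limma p under 0.05 stood 437 genes (2.76%), C1qa, C1qb, C1qc and C1s1 among them.

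Does the anti-CSF1R arm change C1 when IL-10 is already given? BF10 was set against IL-10-Fc, again within a side. No member was called, against 2 of 15813 genes (0.0126%), 1 in each direction, with a median of 0.34 over all genes. None of the members had an unadjusted limma p under 0.05, which 5.24% of all genes had. C1qa was at 350 ± 20.2 FPKM under BF10 and 336 ± 62.7 in IL-10-Fc, a log2 difference of 0.08 with a 95% interval of -0.47 to 0.62, an interval that does not reach the -1.35 found for C1qa in aCSF1R against Ctrl-IgG. The interval for C1qb was -0.10 to 1.02 around 0.46, and this was the one member whose groups did not overlap, where 5.18% of all genes did not. For C1qc the difference was -0.31 (interval -1.18 to 0.56), for C1ra 0.92 (-0.25 to 2.08), for C1s1 -0.24 (-0.87 to 0.39) and for Serping1 0.67 (-0.74 to 2.07). The limma adjusted p of these 6 lay between 0.478 and 0.849. For C1qc, leaving out the 4 high-sum libraries turned the difference to 0.45, and for C1ra and Serping1 it took the difference to -0.01 and -0.08.

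The difference between these effects was also fitted, as how far BF10 departs from its 2 components added together. It was positive for the C1q chains, 1.43 (SE 0.35) for C1qa, 1.74 (SE 0.36) for C1qb and 1.07 (SE 0.56) for C1qc, and negative for C1s1, -1.51 (SE 0.41). None passed the adjusted threshold, with limma adjusted p of 0.973 or more, and 1 gene of 15813 did (0.00632%). The unadjusted limma p was 0.000554 for C1qb, 0.00194 for C1qa and 0.00343 for C1s1, where 2.61% of all genes had one under 0.05. The contrast takes the difference of a difference on each side, so a constant offset between the sides drops out of it, while a response that depends on the side does not.

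The agents that bind CSF1R (aCSF1R and BF10) were also set against those that do not (Ctrl-IgG and IL-10-Fc), averaged over both sides. This gave the C1q chains below 0 and C1ra, C1s1 and Serping1 above it. The log2 differences were -0.64 (SE 0.18) for C1qa, -0.41 (SE 0.18) for C1qb, -0.84 (SE 0.28) for C1qc, 1.04 (SE 0.37) for C1ra, 0.52 (SE 0.20) for C1s1 and 0.99 (SE 0.45) for Serping1, with a median of 0.23 over all genes. None was called (limma adjusted p 0.436 for each), and 0.00632% of all genes were. The unadjusted p was under 0.05 for C1qa, C1qb, C1qc, C1ra and C1s1, as for 5.65% of all genes.

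Next, both IL-10 arms were compared with Ctrl-IgG, and here the sides differ too. In IL-10-Fc, 3 of the 6 members detected in every library rose, C1qa by 1.06 (SE 0.25, limma adjusted p 0.00797), C1qc by 1.52 (SE 0.40, adjusted p 0.0134) and C1s1 by 1.01 (SE 0.29, adjusted p 0.0199) on the log2 scale. In this comparison 33.7% of all genes were called, 10.1% higher and 23.6% lower, with a median of -0.39 over all genes. The groups of these 3 members, and of 37.3% of all genes, did not overlap. The log2(FPKM + 1) differences of C1rb and C1s2 were 1.97 (SE 0.28) and 2.44 (SE 0.19), values that understate the ratio because the lower group is near 0. These genes entered the test only through the libraries of IL-10-Fc and BF10, so their calls against Ctrl-IgG and aCSF1R follow from the filter and are no result. C1qb was at 164 ± 15.8 FPKM against 169 ± 55.2, a log2 difference of 0.01 (interval -0.56 to 0.57). C1ra had a difference of -0.75 (interval -1.92 to 0.41) and Serping1 of 1.63 (interval 0.22 to 3.03, adjusted p 0.0701). Neither was called, but without IL-10-Fc replicate 3 C1ra was (-1.35, limma adjusted p 0.0265), and without Ctrl-IgG replicate 3 Serping1 was (2.47, adjusted p 0.00293). Fitted with these 2 groups alone, C1qa, C1qc and C1s1 were no longer called (limma adjusted p 0.0721, 0.0727 and 0.106). Without IL-10-Fc replicate 1, IL-10-Fc replicate 2 or Ctrl-IgG replicate 1 the call of C1qc was lost (adjusted p 0.0602, 0.0553 and 0.0618), and without the high-sum libraries the differences of C1qa and C1qc were 0.71 and 0.63 and not called. C1s1 was not called with each library rescaled to its FPKM sum (0.80, adjusted p 0.141), nor when mitochondrial genes were left out of that sum (0.84, adjusted p 0.111).

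In BF10 against Ctrl-IgG, 3 of those 6 members rose, C1qa by 1.13 (SE 0.25, limma adjusted p 0.00698), C1qc by 1.21 (SE 0.40, adjusted p 0.0455) and Serping1 by 2.29 (SE 0.64, adjusted p 0.0224). Of all genes 24.9% were called, 11.8% higher and 13.2% lower, with a median of -0.12. The differences of C1rb and C1s2, which the filter fixed here too, were 2.25 (SE 0.28) and 2.12 (SE 0.19) on the log2(FPKM + 1) scale. C1s1 did not pass (0.77, SE 0.29, adjusted p 0.0733) although its groups did not overlap, which held for 38.4% of all genes. C1qb had a difference of 0.47 (SE 0.25, adjusted p 0.220) and C1ra of 0.17 (SE 0.53, adjusted p 0.861). C1qc was called in 9 of 17 alternatives and Serping1 in 11 of 17. The calls of both were lost without BF10 replicate 2 (limma adjusted p 0.0731 and 0.0641), BF10 replicate 3 (0.0831 and 0.0717), Ctrl-IgG replicate 1 (0.168 and 0.0923) or Ctrl-IgG replicate 2 (0.0778 and 0.0808), and without BF10 replicate 1 that of C1qc was (0.127). C1qc was also not called with no filter on low values (adjusted p 0.0833), with a mean of at least 5 FPKM (0.0528) or with median-of-ratios size factors (0.119). Serping1 was also not called without the high-sum libraries (2.05, adjusted p 0.0647) or in a fit of these groups alone (0.0640), and without Ctrl-IgG replicate 3 its difference was 3.14. C1qa was called in all 17 alternatives. Both IL-10 comparisons share the Ctrl-IgG libraries, so they are not independent of each other.

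Set against aCSF1R, where the sides differ as well, all 3 C1q chains were called higher in both arms. In BF10 (25% of all genes called, 14% lower) C1qa was 5.66 times, C1qb 3.42 times and C1qc 6.22 times the aCSF1R mean, with log2 differences of 2.49 (SE 0.25), 1.74 (SE 0.25) and 2.59 (SE 0.40) and limma adjusted p of 8.66e-05, 0.000748 and 0.000956. In IL-10-Fc (42.2% called, 31.2% lower, 56.1% without overlap) the ratios were 5.43, 2.45 and 8.31, with log2 differences of 2.41, 1.28 and 2.90. C1ra fell by 1.92 (SE 0.53, adjusted p 0.0152) in IL-10-Fc, and in BF10 its difference was -0.997 (SE 0.53, adjusted p 0.195). Without the high-sum libraries the IL-10-Fc difference of C1ra was -0.72 and still called, and without IL-10-Fc replicate 1 or replicate 2 it was not called (adjusted p 0.0570 and 0.0656). C1s1 and Serping1 were called in neither.

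**Figure D2:**
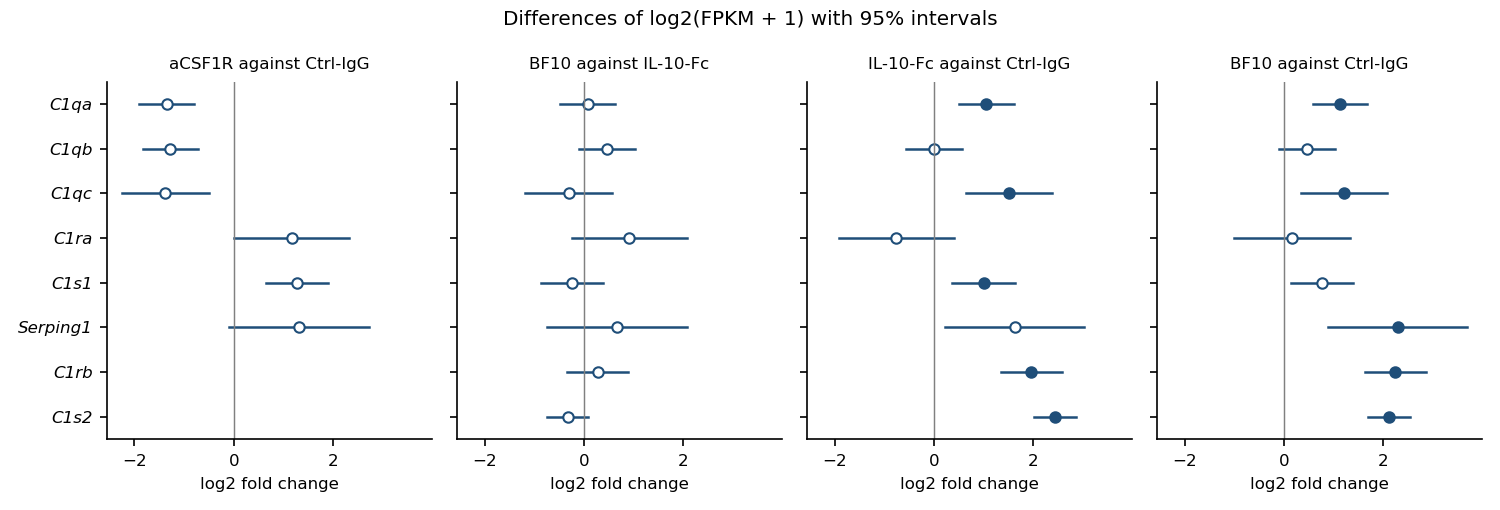
Difference of log2(FPKM + 1) between groups (horizontal axis) for each C1 member (vertical axis) in 4 comparisons, with bars for the 95% limma interval and filled points for members past the threshold. C1rb and C1s2, at most 0.22 FPKM in both groups, are left out of the first panel. The filled points of C1rb and C1s2 follow from the filter on low values. No point is filled in the 2 comparisons within a side on the left, and in aCSF1R against Ctrl-IgG the C1q intervals lie below 0.

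The balance within C1 was read from ratios of FPKM. The sum of the 3 C1q chains over the sum of the 4 protease genes was 4.06, 14.3 and 8.25 under Ctrl-IgG, 1.39, 1.302 and 1.21 under aCSF1R, 16.2, 15.8 and 5.28 under IL-10-Fc, and 11.96, 9.48 and 8.79 under BF10. The aCSF1R libraries had the lowest ratios of all, without overlap with any group. The summed proteases over Serping1 were 9.39, 3.497 and 1.37 under Ctrl-IgG, 3.52, 2.47 and 3.78 under aCSF1R, 1.496, 1.94 and 1.21 under IL-10-Fc, and 1.13, 1.04 and 0.969 under BF10. Summed protease FPKM per FPKM of Serping1 were lowest in BF10, below every library of the other groups.

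The 3 C1q chains, which assemble in equal numbers, did not keep one ratio. C1qc over C1qb was 0.793, 0.896 and 0.813 under Ctrl-IgG, 0.808, 0.774 and 0.736 under aCSF1R, 3.38, 3.54 and 1.14 under IL-10-Fc, and 2.31, 1.12 and 1.05 under BF10. Within IL-10-Fc and BF10 the 3 high-sum libraries had ratios of 2.31 to 3.54 and the other 3 had ratios of 1.05 to 1.14, while the high-sum control, at 0.896, stood close to its group. C1qa over C1qb was 0.870 to 1.04 under Ctrl-IgG, 0.901 to 0.964 under aCSF1R, 1.55 to 2.37 under IL-10-Fc and 1.35 to 1.83 under BF10. The part of side, treatment and library state in these ratios was not tested. C1ra over C1s1 was 1.03 to 1.52 under Ctrl-IgG, 0.975 to 1.295 under aCSF1R, 0.201 to 0.657 under IL-10-Fc and 0.558 to 1.01 under BF10, again lowest in the high-sum libraries of each group that has one.

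**Figure D3:**
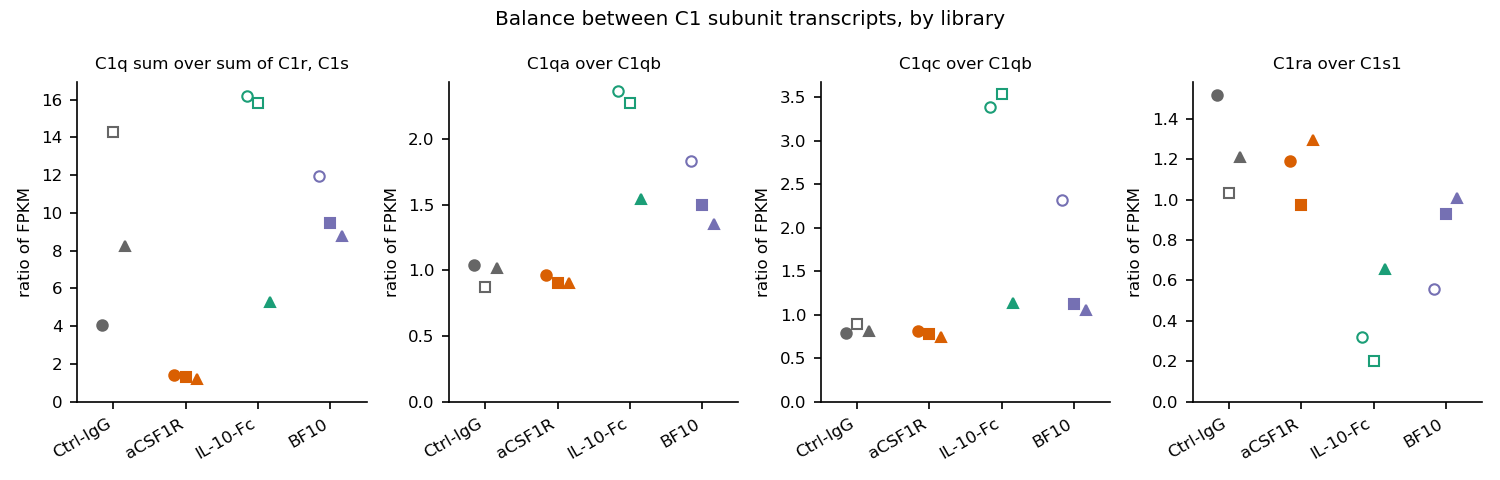
Ratios of FPKM between C1 transcripts (vertical axes from 0) by treatment group, with 1 symbol per library and open symbols for the 4 high-sum libraries. The C1q sum over the summed proteases is 1.21 to 1.39 in aCSF1R and at least 4.06 elsewhere, and C1qc over C1qb is above 2 in the open symbols of IL-10-Fc and BF10 only.

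Macrophage and stromal markers also differed in level between the groups. The summed level of 19 macrophage markers was 710 to 1520 FPKM under Ctrl-IgG, 664 to 709 under aCSF1R, 2001 to 3811 under IL-10-Fc and 2874 to 3112 under BF10. Per 100 FPKM of these markers, C1q was at 46.1, 34.8 and 42.1 FPKM under Ctrl-IgG, 28.2, 27.2 and 24.3 under aCSF1R, 29.9, 30.4 and 32.6 under IL-10-Fc, and 32.3, 27.1 and 31.3 under BF10. On this measure the Ctrl-IgG libraries were above all others, the aCSF1R libraries included. Lyz2 alone averaged 1555 of 3035 FPKM of the marker sum under IL-10-Fc and 1130 of 2988 under BF10. Under Ctrl-IgG it averaged 216 of 1184 FPKM and under aCSF1R 110 of 680. With Adgre1 alone as the base the order differed, C1qa being 6.39 to 17.4 times Adgre1 under Ctrl-IgG, 8.57 to 11.7 times under aCSF1R, 23.2 to 32.6 times under IL-10-Fc and 17.9 to 24.8 times under BF10. The marker genes were not uniform. F4/80 (Adgre1) averaged 14.5 FPKM under Ctrl-IgG and 6.03 in aCSF1R, the pan-macrophage lysosomal protein Cd68 56.2 and 49.5, and Csf1r itself 12.7 and 7.49. Between these 2 groups 0 of 19 markers were called, with a median log2 difference of -0.53 against 0.11 over all genes. In IL-10-Fc against Ctrl-IgG 2 of 19 rose (Mrc1 and Lyz2), a share close to the 10.1% of all genes called higher there. In BF10 against Ctrl-IgG 6 of 19 rose (Mrc1, Trem2, Cx3cr1, Folr2, Lyz2 and Cd14), against 11.8% of all genes, and none fell in either. Cx3cr1 was under 1 FPKM in every Ctrl-IgG and aCSF1R library. It passed the filter only through IL-10-Fc and BF10, so its call follows from the filter and is no result. The part of macrophage content in the C1q levels was not tested.

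The summed level of 12 fibroblast markers was 226 to 802 FPKM under Ctrl-IgG, 708 to 947 under aCSF1R, 1135 to 2774 under IL-10-Fc and 1915 to 2334 under BF10. The C1r and C1s genes summed to 9.68 to 20.0 FPKM per 100 FPKM of these markers in Ctrl-IgG, 14.2 to 19.2 under aCSF1R, 3.85 to 5.56 under IL-10-Fc and 3.64 to 5.54 under BF10, so on this measure the sides did not overlap. Serping1 per 100 FPKM was 2.13 to 7.09, 3.75 to 7.79, 2.58 to 3.68 and 3.22 to 5.72 in the same order, and here each pair of groups overlapped except aCSF1R and IL-10-Fc. With Pdgfra alone as the base the order of the proteases differed. C1s1 was 1.13 to 1.99 times Pdgfra under Ctrl-IgG, 2.29 to 3.58 under aCSF1R, 4.02 to 7.99 under IL-10-Fc and 3.38 to 5.67 under BF10. C1ra over Pdgfra overlapped across the sides. C1s1 over Col1a2 averaged 0.899 under Ctrl-IgG, 0.573 under aCSF1R, 0.259 under IL-10-Fc and 0.151 under BF10. In Ctrl-IgG the one library with high Serping1, replicate 3, also had the highest fibroblast sum (802 FPKM, against 404 and 226). It stood apart further in other tissues' markers, with a skeletal muscle sum of 923 FPKM against 42.6 and 30.3, Krt14 at 431 FPKM against 0 and 0.17, and Krt5 at 138 FPKM against 0.04 and 0. The part of these tissues in its Serping1 level was not tested. Of the 12 markers 0 were called between aCSF1R and Ctrl-IgG, 5 rose in IL-10-Fc and 6 in BF10 against Ctrl-IgG, collagens Col1a1, Col1a2 and Col3a1 in both, where 10.1% and 11.8% of all genes were called higher. The liver is the main source of plasma C1r, C1s and C1 inhibitor, and of 7 hepatocyte genes, whose summed level was 1.02 to 9.57 FPKM, Alb, Ttr, Apoa1 and Apob were under 1 FPKM in every library. The other 3 were not: Apoa2 reached 9.48 FPKM and was called lower in both IL-10 arms against Ctrl-IgG, Serpina1a reached 3.56 FPKM and was at most 0.01 FPKM under Ctrl-IgG and aCSF1R, and Fgb was at 5 FPKM in BF10 replicate 1. Among the other marker lists, none of the monocyte and neutrophil, endothelial, epithelial, skeletal muscle or adipocyte genes was called in aCSF1R against Ctrl-IgG or in BF10 against IL-10-Fc. Across the sides many were. Against Ctrl-IgG, 4 of 7 monocyte and neutrophil genes rose in IL-10-Fc and 3 in BF10 (S100a8, S100a9 and Retnlg in both, Ccr2 in IL-10-Fc), and Ly6c2 fell in both. Of 6 epithelial genes 3 rose in IL-10-Fc and 4 in BF10 (Krt8, Krt18 and Epcam in both, Cdh1 in BF10), and of 4 adipocyte genes 0 and 3 rose (Adipoq, Plin1 and Cidec in BF10). Krt8, Krt18, Adipoq, Plin1 and Cidec were under 1 FPKM in every Ctrl-IgG and aCSF1R library. They passed the filter only through IL-10-Fc and BF10, so their calls follow from the filter and are no result. Epcam too would not have passed without IL-10-Fc and BF10. Of 6 endothelial genes Emcn rose in IL-10-Fc, and of 6 skeletal muscle genes Mylpf fell there. The part of stromal content in the protease and inhibitor levels was not tested.

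**Figure D4:**
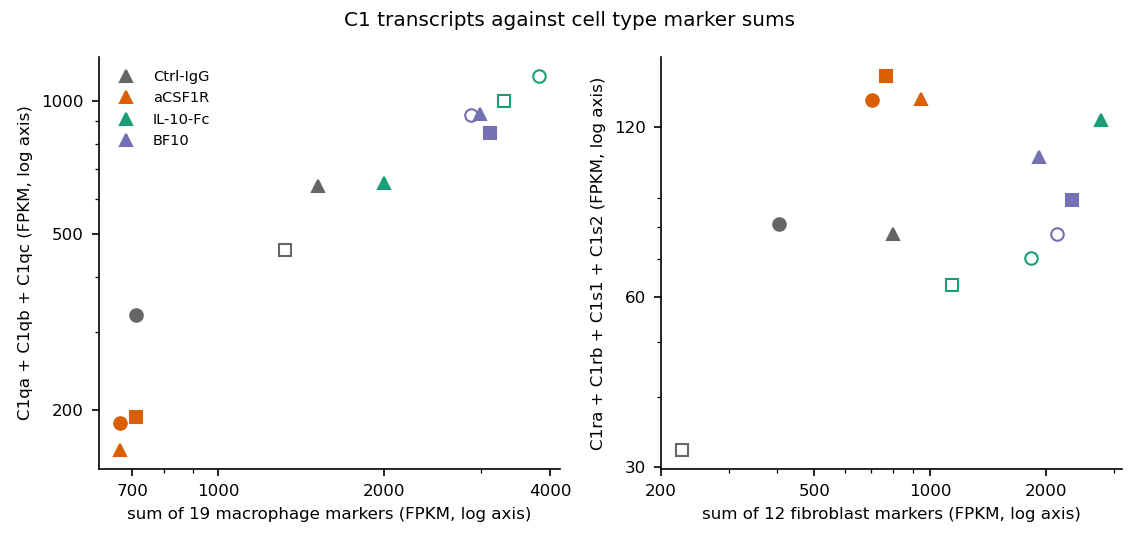
Left, summed C1q against the sum of 19 macrophage markers, and right, summed C1r and C1s against the sum of 12 fibroblast markers, in FPKM on log axes. Each symbol is a library (circle, square and triangle for replicates 1, 2 and 3, open for the high-sum libraries). On the left the aCSF1R libraries are lowest on the C1q axis, at 162 to 193 FPKM. On the right they are highest on the protease axis, at 134 to 148 FPKM.

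Within groups, some members deviated together. Over 12 libraries, with the group mean taken out of log2(FPKM + 1), Pearson's r was 0.73 for C1qa with C1qb, 0.70 for C1qa with C1qc and 0.15 for C1qb with C1qc. For C1ra it was 0.82 with its copy C1rb and 0.79 with its neighbor C1s1, and -0.74 with C1qc. Serping1 had r of 0.81 with C1qb, 0.66 with C1s1 and 0.58 with C1ra. These values are descriptions over libraries that share preparation and depth, and 3 of the 12 points in each come from each group.

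The genes whose deviations were most like those of a member, among the 9449 searched (mean level 5 FPKM or more, without members, predicted genes, pseudogenes and antigen receptor segments), included Art3 (r 0.93), Cebpa (0.91), Il11ra1 (0.89) and Smpdl3a (0.88) for the mean of the 3 C1q chains. Cebpa, a transcription factor of myeloid cells, averaged 5.33 FPKM under Ctrl-IgG, 3.29 under aCSF1R, 12.3 under IL-10-Fc and 11.7 under BF10. For C1s1 they were Fuz (0.97), Aspscr1 (0.97), Hyal2 (0.96), Brsk1 (0.96) and Igsf8 (0.95). For Serping1 they were Serpine2 (0.97), another serpin, Loxl1 (0.97), Prss23 (0.97), Plac9b (0.97) and Cpxm1 (0.97). The fibroblast markers had a median r of 0.52 with Serping1, between -0.23 for Fap and 0.94 for Col1a2. The macrophage markers had a median r of 0.33 with the C1q mean, between -0.18 for Cd68 and 0.73 for Lyz2. Their median r with Serping1 was higher, 0.47, between -0.48 for Tyrobp and 0.88 for Apoe. Fibroblast markers had a median r of 0.20 with the C1q mean, between -0.49 for Thy1 and 0.87 for Lum. With C1s1 the medians were 0.63 for fibroblast and 0.26 for macrophage markers.

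The next steps of the pathway were read from a list of 13 genes of the classical and lectin pathways beyond C1, of which 7 passed the filter. None of the 7 was called in aCSF1R against Ctrl-IgG or in BF10 against IL-10-Fc, the comparisons within a side. In IL-10-Fc against Ctrl-IgG 3 of 7 rose (C4b, Fcna and Colec12), and in BF10 against Ctrl-IgG 4 of 7 rose (these and C2). The medians were 1.01 and 1.84 against -0.39 and -0.12 over all genes, of which 10.1% and 11.8% were called higher. Fcna, at 0.39, 0.41 and 2.28 FPKM under Ctrl-IgG and at most 0.71 under aCSF1R, would not have passed the filter without IL-10-Fc and BF10. C4b, the substrate of C1s that is deposited on targets, was at 3.26, 2.45 and 18.1 FPKM under Ctrl-IgG, 9.97, 13.4 and 12.1 under aCSF1R, 37.2, 21.9 and 37.8 under IL-10-Fc, and 35.4, 53.6 and 63.5 under BF10. C2, its other substrate, was at 1.94, 1.89 and 4.97 FPKM under Ctrl-IgG, 4.48, 7.49 and 5.71 under aCSF1R, 4.88, 3.38 and 8.83 under IL-10-Fc, and 5.89, 8.80 and 12.9 under BF10. Like Serping1, both were highest in replicate 3 among the controls. The mannose-binding lectins Mbl1 and Mbl2, which start the lectin pathway, were under 1 FPKM in every library.

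Among 19 regulators and receptors, 15 passed the filter. None was called in aCSF1R against Ctrl-IgG or in BF10 against IL-10-Fc. In IL-10-Fc against Ctrl-IgG the macrophage receptor Vsig4 rose and 3 genes fell (Cd55, C1qbp and Calr), and in BF10 against Ctrl-IgG 1 rose (Lrp1). C1qbp and Calr encode proteins that bind C1q, and Calr was at 391 to 714 FPKM under Ctrl-IgG and 107 to 422 in IL-10-Fc. A further list of 11 pentraxin, serpin and C1q family genes had 9 that passed, of which 0 were called in aCSF1R against Ctrl-IgG and 3 rose in each IL-10 arm against Ctrl-IgG (Serpinf1, C1qtnf1 and C1qtnf2). Of all genes 10.1% were called higher in IL-10-Fc and 11.8% in BF10. The pentraxins Crp and Apcs, which also bind C1q, were under 1 FPKM in every library. Interferon gamma is known to raise C1 inhibitor and C1s in cultured cells, and of 18 interferon gamma response genes 0 were called in aCSF1R against Ctrl-IgG or in BF10 against IL-10-Fc. Against Ctrl-IgG, 5 rose and 2 fell in IL-10-Fc, where 10.1% of all genes were called higher and 23.6% lower, and 3 rose and 1 fell in BF10, where 11.8% and 13.2% were.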

How the data were processed

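Libraries were grouped by the treatment in their labels, with replicates numbered in accession order. The authors deposited gene-level FPKM values made from stranded 75-base reads on GRCm38; the submitters' processing notes name STAR 2.7.5a, RSEM 1.3.3 and DESeq2 1.30.0 without roles. The authors' tables of their own comparisons (fold changes and p-values) were not used. Here log2(FPKM + 1) of the 15813 genes at 1 FPKM or more in at least 3 libraries was fitted with limma 3.58.1 (R 4.3.3; all 12 libraries, trended eBayes, two-sided) and adjusted by Benjamini-Hochberg over all genes. Calls required an adjusted p under 0.05 with a change of 1.5-fold or more. The fit was tested on simulated data. Read depth is not in the FPKM; the smallest steps of short genes put relative depth at 0.962 to 1.43 times that of Ctrl-IgG replicate 1. No 2 libraries held identical values. The members and the gene lists were chosen with earlier results of these data known. Named genes were the members, list genes, and the 5 genes most like C1q, C1s1 and Serping1. Some results under these rules are not reported here. Alternatives covered the pseudocount, filters, scaling, covariates and single libraries.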

Additional observations from a re-analysis of the deposited data

Results flagged for a closer look

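The difference between the effect of adding CSF1R binding in tumors given IL-10 and in tumors not given it had an unadjusted p under 0.05 in 3 members, and after adjustment over all genes it was not shown in any of them. The difference in log2 fold change was 1.43 for C1qa (SE 0.35, limma unadjusted p 0.00194, adjusted p 1.00), 1.74 for C1qb (SE 0.36, unadjusted p 0.000554, adjusted p 0.973) and -1.51 for C1s1 (SE 0.41, unadjusted p 0.00343, adjusted p 1.00). In all, 2.61% of all genes had an unadjusted p under 0.05. C1qa and C1qb were lower in 3 of 3 aCSF1R libraries than in every Ctrl-IgG library, while BF10 and IL-10-Fc overlapped in C1qa, and C1qb was higher in 3 of 3 BF10 libraries than in every IL-10-Fc library. The sign of each of the 3 differences was the same under all 22 alternatives, between 1.12 and 1.81 for C1qa, 1.43 and 1.98 for C1qb, and -1.80 and -1.16 for C1s1. Side and the presence of IL-10 cannot be told apart here.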

How the results depend on the processing

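Precision rests on 3 libraries a group, since FPKM carry no read counts, and treatment cannot be told apart from side across the sides. No paired analysis was possible because no whole title code occurs in more than 1 library and any 2 groups have at most 1 first number of the code in common, whose meaning the labels do not give. The title code term below is a split of first numbers 1 to 4 against 5 to 7, not a block of pairs. The number of members called, which across the sides includes C1rb and C1s2, fixed by the filter, stayed within 1.5 times of its value in 137 of 146 alternatives. From 5 in IL-10-Fc against Ctrl-IgG it went to 3 with a mean of at least 5 FPKM (which drops C1rb and C1s2), 2 in a fit of these groups alone and 3 without the 4 high-sum libraries (chosen after seeing the data), and from 5 in BF10 against Ctrl-IgG to 2 and in BF10 against aCSF1R to 3 with the 5 FPKM filter. Leaving out single libraries gave 3 to 6 members in BF10 against Ctrl-IgG. No sign changed among called members. Differences that turned sign were not called in either setting, and the cause was not tested.

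Rescaled to TPM, C1qb in IL-10-Fc against Ctrl-IgG was -0.21 and C1s1 in BF10 against IL-10-Fc 0.0015. With median-of-ratios size factors, C1qa and C1rb in BF10 against IL-10-Fc were -0.37 and -0.044, and C1s1 in IL-10-Fc against aCSF1R 0.37. With quantile normalization C1rb in BF10 against IL-10-Fc was -0.11 and C1s1 in IL-10-Fc against aCSF1R 0.019. With a title code term C1ra in BF10 against Ctrl-IgG was -0.10. With the FPKM sum as a covariate, C1qc and C1rb in BF10 against IL-10-Fc were 0.17 and -0.073, and C1s1 in IL-10-Fc against aCSF1R 0.068. Rescaled without mitochondrial genes (added later), C1qb in IL-10-Fc against Ctrl-IgG was -0.18. Without the high-sum libraries, C1ra in BF10 against Ctrl-IgG was -0.046, C1qc, C1ra, C1rb and Serping1 in BF10 against IL-10-Fc were 0.45, -0.014, -0.28 and -0.078, and C1s1 in IL-10-Fc against aCSF1R was 0.066. With single libraries left out, C1ra in BF10 against Ctrl-IgG ranged from -0.31 to 0.45, C1qa in BF10 against IL-10-Fc from -0.061 to 0.21, Serping1 in IL-10-Fc against aCSF1R from -0.14 to 0.67 and C1qb in IL-10-Fc against Ctrl-IgG from -0.24 to 0.24. In aCSF1R against Ctrl-IgG the C1q chains stayed below 0 and C1ra, C1s1 and Serping1 above 0 in all 17 alternatives.

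Over all genes the calls ranged from 2734 to 8042 around 5326 in IL-10-Fc against Ctrl-IgG, 2135 to 6901 around 3941 in BF10 against Ctrl-IgG, 2121 to 6740 around 3955 in BF10 against aCSF1R, 4223 to 9587 around 6669 in IL-10-Fc against aCSF1R, 0 to 115 around 2 in BF10 against IL-10-Fc, 0 to 28 around 1 in the departure and 0 to 49 around 1 in the averaged contrast, and were 0 throughout in aCSF1R against Ctrl-IgG. Size factors took the median over all genes in IL-10-Fc against Ctrl-IgG from -0.39 to -0.0035. In IL-10-Fc and BF10 against Ctrl-IgG the called macrophage markers ranged from 1 to 10 and 3 to 12, fibroblast markers from 2 to 8 and 4 to 9, pathway genes from 2 to 6 and 3 to 6, and regulators and receptors from 1 to 9 and 0 to 10.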
